A study of Mus musculus with 12 samples.

Results

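The S100, annexin and galectin genes described here are 8 genes of calcium-binding and sugar-binding proteins, S100a4, S100a6, S100a10, S100a11, Anxa2, Anxa5, Lgals1 and Lgals3, taken by name from the 9073 genes of a count table. All 8 were in the table and all 8 passed the filter on low counts that left 8312 genes. RNA came from adult mouse dorsal root ganglion (DRG) neurons of the genotype RPL22HA+/+;Advillin-Cre+, in which Cre expressed from the sensory neuron gene Advillin puts a haemagglutinin (HA) tag on ribosomal protein L22, so that anti-HA immunoprecipitation (IP) retains RNA on the tagged ribosomes and Input is the RNA before that step. The 4 groups were IP with AAV-shGpr151, IP with AAV-control, Input with AAV-shGpr151 and Input with AAV-control, with 3 count columns each, where AAV is the adeno-associated virus that carries the construct and shGpr151 a short hairpin RNA named for the orphan receptor gene Gpr151. The design text gives sciatic nerve injury before culture for all mice, whereas the extraction protocol names fresh ganglia, and neither gives the interval after injury or the number of animals.

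S100 proteins are small EF-hand proteins that change shape on binding calcium and then bind partner proteins. Annexins bind the acidic phospholipids of membranes when calcium rises, and S100A10 and annexin A2 form a stable complex at the plasma membrane that takes part in membrane repair and in the trafficking of ion channels such as Nav1.8 in nociceptors. Galectins bind beta-galactoside sugars on glycoproteins inside and outside cells. In sensory ganglia several of these genes are known to be induced after nerve injury, and they are also made by glia, macrophages and fibroblasts.

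The columns of a group were close to repeat draws of 1 library. Over all genes, the 12 comparisons of columns that share a group gave a chi-square per degree of freedom of 0.98 to 1.05, and the 54 comparisons across groups gave 1.80 to 156. Each group was therefore summed and counted as 1 sample, so no difference below has a replicate check, no p-value is given, and every 95% interval covers counting error only. Columns that do not overlap likewise speak to counting error only, and the share of all genes with such columns was not counted. The summed totals were 3285258 counts in IP shGpr151, 4245486 in IP control, 6148538 in Input shGpr151 and 6332991 in Input control. Gpr151 itself had 76.1 CPM (counts scaled to a library total of 1e6) in IP shGpr151 and 74.0 CPM in IP control, and 13 and 24 counts in Input shGpr151 and Input control, so a lower level of the targeted gene was not seen in the IP library labelled shGpr151. All 16 sensory neuron markers were in the table, and 13 of them were over 2-fold higher in IP than in Input in either treatment. Of the 8312 genes 26.4% were in shGpr151 and 23.7% in control. Ratios use library sizes from the trimmed mean of M values (TMM), which put the typical gene near 0. For IP against Input this scale lies 2.17 log2 units below the ratio of CPM in control and 2.19 below it in shGpr151, so each direction holds relative to that shift.

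The bases before the transcription start are shown for 4 of the genes, since S100a4 and S100a11 had the most similar pattern of levels over the 4 libraries and Anxa2 and Anxa5 were the annexins of the set. The sequences are from RefSeq on GRCm38.p6 and were available for 6 of the 8 genes, without S100a10 and Lgals1. They cover the 250 bases before the start, and run 5′ to 3′ on the gene's strand. Capitals mark matches to 4 motifs searched on both strands. The AP-1 motif of the Jun and Fos factors was searched as TGANTCA. For the GC box, which Sp family factors bind, the letters were GGGCGG. The TATA box, near which transcription begins in some genes, was searched as TATAAA. The cyclic AMP response element, bound by CREB, was searched as TGACGTCA. No marked motifs overlap.
S100a4, chr3:90603520-90603769, plus strand: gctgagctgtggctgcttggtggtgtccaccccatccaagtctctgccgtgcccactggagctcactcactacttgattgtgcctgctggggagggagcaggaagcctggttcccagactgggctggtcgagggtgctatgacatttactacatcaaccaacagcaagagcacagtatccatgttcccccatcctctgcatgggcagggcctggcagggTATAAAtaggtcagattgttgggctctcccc
S100a11, chr3:93520246-93520495, plus strand: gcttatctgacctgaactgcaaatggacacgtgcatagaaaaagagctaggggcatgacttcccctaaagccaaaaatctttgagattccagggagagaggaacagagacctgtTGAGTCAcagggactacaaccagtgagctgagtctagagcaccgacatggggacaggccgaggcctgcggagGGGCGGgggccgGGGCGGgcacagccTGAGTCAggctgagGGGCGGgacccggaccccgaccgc
Anxa2, chr9:69453433-69453682, plus strand: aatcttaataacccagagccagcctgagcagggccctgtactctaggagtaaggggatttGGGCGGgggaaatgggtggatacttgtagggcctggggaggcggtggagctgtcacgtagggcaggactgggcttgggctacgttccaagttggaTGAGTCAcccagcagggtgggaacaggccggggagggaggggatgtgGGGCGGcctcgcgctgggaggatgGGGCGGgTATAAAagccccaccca
Anxa5, chr3:36475888-36476137, minus strand: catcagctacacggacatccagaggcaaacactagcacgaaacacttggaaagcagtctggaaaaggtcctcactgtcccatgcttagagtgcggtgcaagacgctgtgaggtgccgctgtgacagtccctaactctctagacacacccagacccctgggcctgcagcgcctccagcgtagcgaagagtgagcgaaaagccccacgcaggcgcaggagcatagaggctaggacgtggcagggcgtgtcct
The AP-1 letters occurred at 2 places before S100a11 and at 1 before Anxa2, and in 6.75% of all 32851 windows of this length. TATA box letters stood before S100a4 and Anxa2 and in 12.4% of windows, GC box letters before S100a11, Anxa2 and Lgals3 and in 32.7%, and the cyclic AMP response element before 0 of the 6 genes and in 1.55%. The window before Anxa5 held none of these letters. Within each of the pairs S100a4 with S100a11 and Anxa2 with Anxa5, the AP-1 letters were thus found in 1 of the windows. All of the S100 genes in the set and Anxa5 lie on chromosome 3, where S100a11 and S100a10 are next to each other among coding genes and S100a5 alone separates S100a4 from S100a6.

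The annexins Anxa2 and Anxa5 made up a far larger share of the IP libraries than of the Input libraries, whereas Lgals1 and S100a4 made up a smaller share. S100a6, Lgals3 and S100a10 had a larger share of the IP libraries but lay below the typical gene once the TMM shift was applied. The 8 genes together held 3.26% of all counts in IP shGpr151 (95% binomial interval, exact Clopper-Pearson, 3.24 to 3.28) and 3.30% in IP control (3.29 to 3.32), against 2.43% in Input shGpr151 (2.42 to 2.44) and 2.50% in Input control (2.48 to 2.51). In bulk RNA, fewer cells of a type and less RNA per cell cannot be told apart, so a share says nothing of how many cells carried a transcript.

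**Figure D1:**
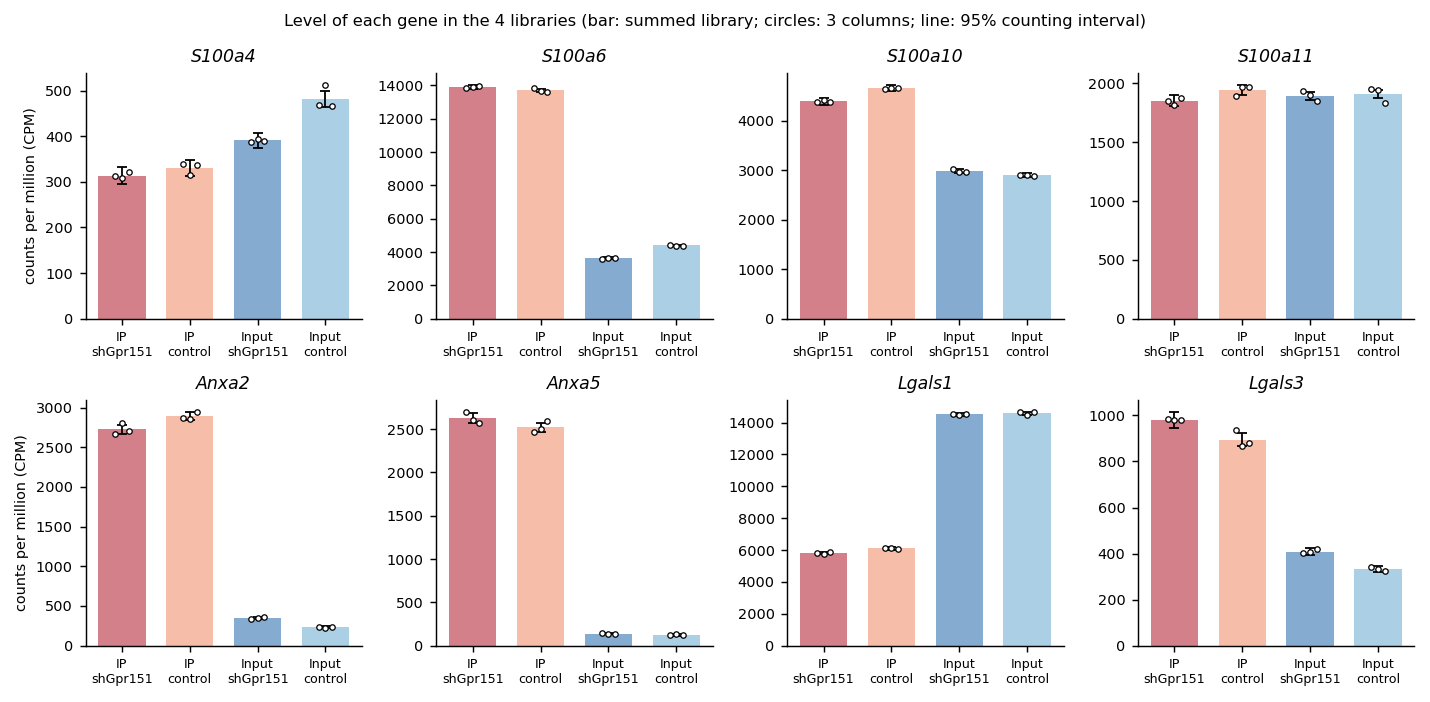
CPM for each of the 8 genes, with IP shGpr151, IP control, Input shGpr151 and Input control from left to right in every panel. Bars are summed libraries, circles the 3 columns and lines the 95% Poisson interval. Anxa2 stands at 2726 and 2891 CPM in IP shGpr151 and IP control, against 349.8 and 232 in Input, Lgals1 is higher in Input, and S100a11 lies between 1850.1 and 1944 CPM in all 4 libraries.

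Among the S100 genes, S100a6 (calcyclin, which binds the ubiquitin ligase adaptor CacyBP) had 15171, 15223 and 15257 counts in the columns of IP shGpr151 and 19574, 19301 and 19268 in IP control, against 7382, 7458 and 7480 in Input shGpr151 and 9355, 9263 and 9209 in Input control. Scaled to the library total these were 13896 CPM in IP shGpr151, 13695 in IP control, 3630.1 in Input shGpr151 and 4394 in Input control. The 2 IP libraries had overlapping intervals and stood well above both Input libraries, and Input control stood above Input shGpr151. On TMM sizes the log2 ratio of IP over Input was -0.26 (-0.28 to -0.24) in shGpr151 and -0.53 (-0.55 to -0.51) in control, so S100a6 was slightly below the typical gene although its CPM was 3.83 and 3.12 times higher in IP.

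S100a4, also called metastasin and known to bind the non-muscle myosin Myh9, had 342, 338 and 351 counts in IP shGpr151 and 480, 447 and 477 in IP control, against 796, 807 and 799 in Input shGpr151 and 987, 1082 and 982 in Input control. Its levels were 314 CPM in IP shGpr151, 331 in IP control, 391 in Input shGpr151 and 482 in Input control. S100a4 was thus the member of the S100 group whose interval lay below 0 on either scale in both treatments, with TMM log2 ratios of -2.51 (-2.62 to -2.40) in shGpr151 and -2.72 (-2.81 to -2.62) in control. The intervals of the 2 IP libraries overlapped, and those of the 2 Input libraries did not.

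S100a10 (p11), which has lost the ability to bind calcium and is the partner of annexin A2, had 4798, 4847 and 4778 counts in IP shGpr151 and 6565, 6587 and 6603 in IP control, against 6191, 6065 and 6049 in Input shGpr151 and 6142, 6133 and 6071 in Input control. That is 4390.2 CPM in IP shGpr151, 4653 in IP control, 2977 in Input shGpr151 and 2897 in Input control. Its share was larger in both IP libraries, 1.47 times in shGpr151 and 1.61 times in control, whereas on TMM sizes it was lower, at -1.63 (-1.67 to -1.60) and -1.49 (-1.52 to -1.46). S100a11, a partner of annexin A1, had the flattest profile, with 1850.1 CPM in IP shGpr151, 1944 in IP control, 1895 in Input shGpr151 and 1910.2 in Input control. Neighbouring intervals overlapped all along the order of those 4 levels. Relative to the typical gene S100a11 was lower in IP, at -2.23 (-2.27 to -2.18) in shGpr151 and -2.15 (-2.19 to -2.11) in control, but in control the sign turns to 0.03 on total counts.

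Anxa2, a membrane scaffold that joins S100A10, had 2922, 3072 and 2960 counts in IP shGpr151 and 4066, 4038 and 4170 in IP control, against 695, 723 and 733 in Input shGpr151 and 505, 464 and 500 in Input control. In CPM these were 2726 in IP shGpr151, 2891 in IP control, 349.8 in Input shGpr151 and 232 in Input control. All 4 intervals were apart, with both IP libraries far above both Input libraries. The TMM log2 ratio of IP over Input was 0.77 (0.70 to 0.84) in shGpr151 and 1.47 (1.39 to 1.55) in control, or 7.79 and 12.5 times on CPM. Anxa5, which binds exposed phosphatidylserine, had 2955, 2855 and 2812 counts in IP shGpr151 and 3487, 3536 and 3674 in IP control, against 293, 285 and 276 in Input shGpr151 and 255, 274 and 264 in Input control. Its ratio was the highest of the 8 genes in both treatments, 2.05 (1.94 to 2.15) in shGpr151 and 2.16 (2.05 to 2.26) in control on TMM sizes, or 18.9 and 20.1 times on CPM. Both annexins were higher in IP on either scale.

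Lgals1, the gene of galectin-1, a secreted lectin known to promote axon growth after nerve injury, had 6366, 6314 and 6420 counts in IP shGpr151 and 8673, 8663 and 8602 in IP control, against 29803, 29680 and 29847 in Input shGpr151 and 30889, 30541 and 30891 in Input control. It reached 5814 CPM in IP shGpr151 and 6109.55 in IP control, against 14529 in Input shGpr151 and 14578 in Input control. The CPM intervals of the 2 Input libraries overlapped, as did their scaled columns, and IP was lower on either scale, with TMM ratios of -3.52 (-3.54 to -3.49) in shGpr151 and -3.43 (-3.45 to -3.41) in control. Lgals3, the gene of galectin-3, which marks phagocytes and damaged lysosomes, went the other way in CPM, with 981 in IP shGpr151 and 894 in IP control, against 409 in Input shGpr151 and 333 in Input control. On TMM sizes it lay at -0.93 (-1.01 to -0.86) in shGpr151 and -0.75 (-0.83 to -0.67) in control, inside 2-fold. RefSeq lists a pseudogene for S100a11 and for Lgals1, neither of them in the table, and an overlapping predicted gene for Lgals1, so their counts are uncertain to the extent that reads could be shared.

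Past 2-fold on TMM sizes, 1 member was higher and 4 were lower in the IP library of shGpr151, where 26.4% of the 8312 genes were higher and 26.6% lower. In control 2 members were higher and 4 lower, where 23.7% of genes were higher and 25.2% lower. Transcripts with many counts sat lower than others in this comparison. Of the 458 genes with at least the 7888 summed counts of S100a4, the least counted member, 7.42% were higher and 82.1% lower in shGpr151, and 9.17% and 78.8% in control. Their median ratio was -2.97 in shGpr151 and -2.75 in control, against -1.28 and -1.12 for the 8 genes. The 458 were chosen on counts summed over all 4 libraries, and the Input totals were larger. A gene high in Input thus entered more easily, so a low IP over Input ratio in this set follows in part from the rule. By counting interval 2 members were higher and 6 lower in each treatment, where 34% of all genes were higher and 33.5% lower in shGpr151 (12% and 88% of the abundant genes), and 33.1% and 33.5% in control (12.9% and 86.2%). On total counts 5 members were higher and 2 lower in each treatment by interval, and the share of all genes by that rule was not counted. Past 2-fold on that scale 4 members were higher and 1 lower in each treatment. Among the 8312 genes 6331 were higher and 684 lower in shGpr151, and 6447 and 673 in control. Anxa5 stood at percentile 90.3 of all genes in shGpr151 and 93.5 in control, Anxa2 at 67.4 and 85.5, S100a6 at 40.3 and 34.1, S100a4 at 11.7 and 10.2 and Lgals1 at 7.0 and 7.2. The IP and Input libraries of one treatment are separate from those of the other, and the order of the 8 ratios was the same in both.

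**Figure D2:**
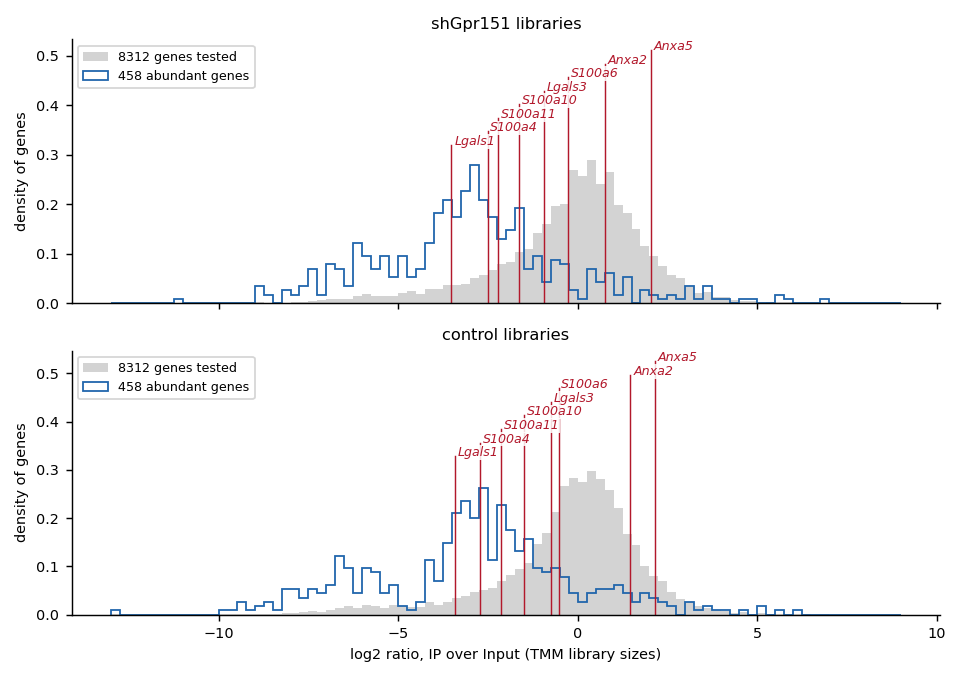
Density of genes along the log2 ratio of IP over Input on TMM library sizes, shGpr151 libraries above and control libraries below, for the 8312 genes tested (grey) and the 458 with at least 7888 summed counts (blue outline). Red lines mark the 8 genes. Lgals1 at -3.52 and -3.43 lies among the abundant genes, whereas Anxa5 at 2.05 and 2.16 lies in the upper part of both distributions.

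Ratios between members within a library do not depend on library scaling. Anxa2 had 62.1 counts per 100 counts of its partner S100a10 in IP shGpr151 (60.5 to 63.7) and 62.1 in IP control (60.7 to 63.5), against 11.8 in Input shGpr151 (11.2 to 12.3) and 8.01 in Input control (7.59 to 8.44). This proportion was alike in the 2 IP libraries and differed between the 2 Input libraries. Lgals3 had 16.9 counts per 100 of Lgals1 in IP shGpr151 (16.3 to 17.5) and 14.6 in IP control (14.1 to 15.1), against 2.82 (2.70 to 2.93) in Input shGpr151 and 2.29 (2.19 to 2.39) in Input control. S100a6 had 751 counts per 100 of S100a11 in IP shGpr151 and 705 in IP control, against 192 in Input shGpr151 and 230.0 in Input control. Anxa5 had 96.3 counts per 100 of Anxa2 in IP shGpr151 (93.5 to 99.2) and 87.2 in IP control (84.9 to 89.4), against 39.7 in Input shGpr151 (36.6 to 43.0) and 54.0 in Input control (49.5 to 58.9). Such proportions show unequal change and do not tell which of the pair differed.

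**Figure D3:**
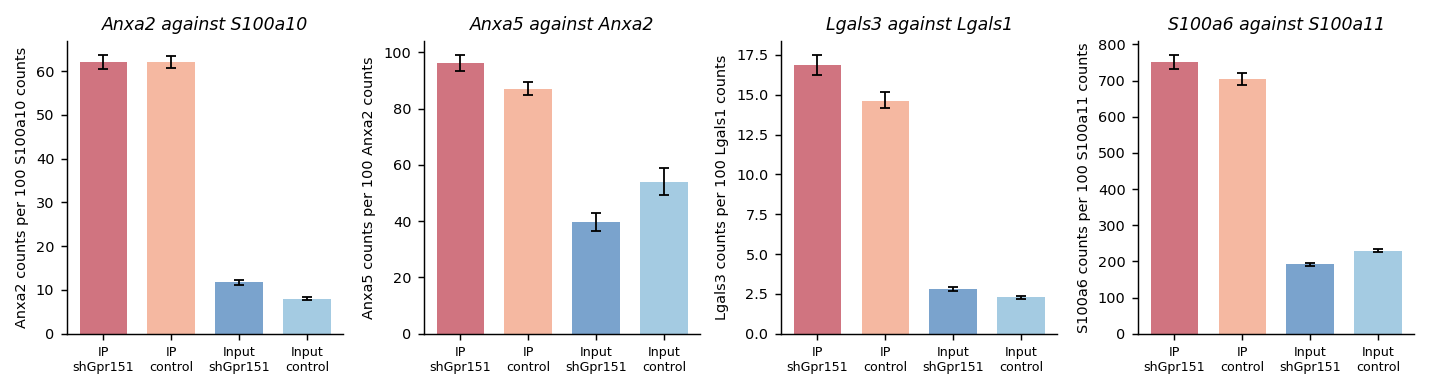
Counts of one gene per 100 counts of another in the same library, for Anxa2 against S100a10, Anxa5 against Anxa2, Lgals3 against Lgals1 and S100a6 against S100a11, with IP shGpr151, IP control, Input shGpr151 and Input control from left to right and 95% conditional binomial intervals. Anxa2 stands at 62.1 per 100 S100a10 in both IP libraries, against 11.8 and 8.01 in Input shGpr151 and Input control.

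Among relatives of the 8 genes, most S100 genes were lower and several annexins and galectins higher in IP on TMM sizes. Of 13 other S100 genes 7 were in the table. In both treatments 5 of them were past 2-fold lower and 1 was higher, with a median of -2.05 in shGpr151 and -1.90 in control. Of all genes 26.6% were lower and 26.4% higher in shGpr151, and 25.2% and 23.7% in control. On total counts 1 of the 7 was past 2-fold lower and 2 higher. On that scale 684 of the 8312 genes were lower and 6331 higher in shGpr151, and 673 and 6447 in control. S100b, a glial marker, was the higher one on TMM sizes, at 1.23 (1.08 to 1.38) in shGpr151 and 1.12 in control. S100a13, which takes part in the release of FGF1, lay at -1.85 (-1.91 to -1.78) in shGpr151 and -1.90 (-1.95 to -1.84) in control, and S100a1, best known from muscle, at -2.80 and -2.77. Of 6 other annexins, 2 were higher in both treatments, Anxa6 at 2.99 (2.75 to 3.24) in shGpr151 and 2.23 (2.03 to 2.45) in control and Anxa7 at 2.73 (2.39 to 3.08) in shGpr151 and 2.42 in control. Anxa4 was past 2-fold lower in both, at -1.82 and -1.67, and Anxa1, known for its anti-inflammatory action, lay at -0.98 in shGpr151 and -1.10 in control. On total counts, where most genes were past 2-fold higher as given above, 5 of the 6 were over 2-fold higher in each treatment. Anxa4 was the exception, at 1.30 times in shGpr151 and 1.42 times in control. Among galectins, Lgals8 was higher at 1.74 (1.37 to 2.14) in shGpr151 and 1.49 (1.12 to 1.88) in control, and Lgals9 at 0.57 (0.08 to 1.08) and 1.24 (0.74 to 1.78).

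**Figure D4:**
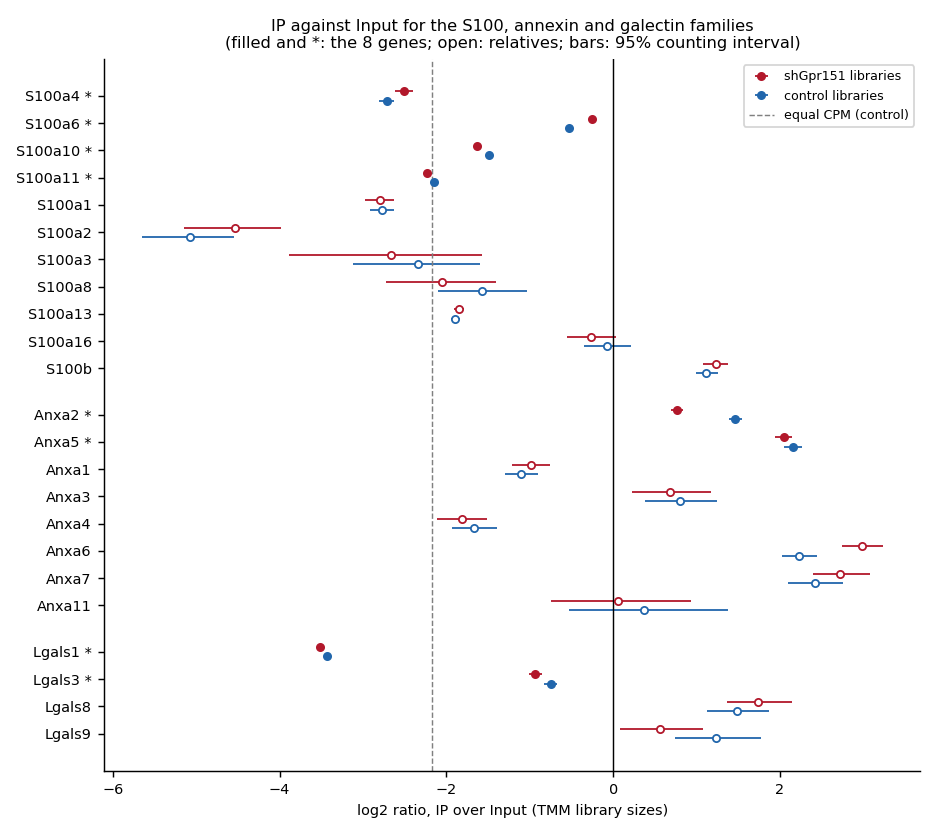
Log2 ratio of IP over Input on TMM library sizes for the 8 genes (filled, starred) and their tested relatives (open), shGpr151 libraries in red above control libraries in blue, with 95% counting intervals. The dashed line marks equal CPM in control. S100 genes other than S100a6, S100a16 and S100b lie below -1, whereas Anxa2, Anxa3, Anxa5, Anxa6, Anxa7, Lgals8 and Lgals9 lie above 0 with their intervals in both treatments, and the intervals of Anxa11 take in 0.

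Of 24 listed binding partners of these proteins 14 were in the table, and 6 were past 2-fold higher in IP and 0 lower in both treatments, with a median of 0.90 in shGpr151 and 0.80 in control. Of all genes 26.4% were higher and 26.6% lower in shGpr151, and 23.7% and 25.2% in control. On total counts 14 of the 14 partners were past 2-fold higher in each treatment, where 6331 of the 8312 genes were in shGpr151 and 6447 in control. Ahnak, a giant scaffold that binds the S100A10 and annexin A2 complex, had 2.40 (2.19 to 2.61) in shGpr151 and 2.12 (1.92 to 2.33) in control. Itgb1, an integrin chain that galectin-1 binds, had 1.00 (0.80 to 1.21) and 0.75 (0.57 to 0.94), and the lysosomal glycoprotein gene Lamp1 had 1.06 and 1.21.

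Markers of other cells were present in both kinds of RNA and moved between them. The 16 sensory neuron markers summed to 21514 CPM in IP shGpr151 and 22549 in IP control, against 1930.2 in Input shGpr151 and 1729 in Input control. Macrophage markers, of which 11 of 16 were in the table (without Cd14, Ptprc, Adgre1, Mrc1 and Itgam), summed to 569 CPM in IP shGpr151 and 542 in IP control, against 496 in Input shGpr151 and 466 in Input control, and 7 of the 11 were past 2-fold lower on TMM sizes in shGpr151 and 8 in control, where 26.6% and 25.2% of all genes were. On total counts 4 macrophage markers were past 2-fold higher and 3 lower in shGpr151, and 3 higher and 3 lower in control. On that scale 6331 of the 8312 genes were higher and 684 lower in shGpr151, and 6447 and 673 in control. Satellite glia markers, 11 of 12 in the table (without Slc1a3), summed to 2222 and 1979 CPM in the IP libraries of shGpr151 and control, against 400.1 and 409 in Input, and fibroblast markers, 9 of 12 in the table, to 1412 and 1152 against 497 and 567. Schwann cell markers, 8 of 12 in the table (without Prx, Ncmap, Cldn19 and Drp2), summed to 736 and 697 CPM in IP, against 316 and 361 in Input, and endothelial and mural markers, 8 of 11 in the table, to 356 and 368, against 228 and 173. These sums are in CPM, on which the typical gene is higher in IP. On TMM sizes the median IP over Input ratio of the satellite glia markers that passed the filter was 1.00 in shGpr151 and -0.14 in control. It was 0.70 and 0.43 for fibroblast, -0.43 and -0.87 for Schwann cell, -0.65 and -0.64 for endothelial and mural, -1.60 and -1.50 for macrophage and 2.04 and 1.83 for sensory neuron markers. Genes listed here have at least 1 count in every column, so markers without any are not seen. The part of these cells in the levels of the 8 genes was not tested, and neither was that of transcript length.

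Between the IP libraries of shGpr151 and control, which hold ribosome-bound RNA, the 8 genes differed little. Past 1.5-fold, 0 of 8 were higher and 0 lower, where 3.54% of genes were higher and 2.35% lower, and 0.437% and 0.218% of the 458 abundant genes. Counting intervals placed 6 members below 0 and 1 above it, compared with 10.8% and 9.35% of all genes, but with 60.5% and 14.2% of the 458 abundant genes, whose median was -0.12. The members' median was -0.11. S100a10 had a log2 ratio of -0.13 (-0.16 to -0.10), Anxa2 -0.13 (-0.17 to -0.09), S100a11 -0.11 (-0.16 to -0.07), Lgals1 -0.11 (-0.14 to -0.09) and S100a4 -0.12 (-0.24 to -0.0015), so these lay where the abundant genes lay. Lgals3 was the member above 0, at 0.09 (0.02 to 0.16), with columns of 1078, 1073 and 1072 counts in shGpr151 and 1327, 1227 and 1243 in control that did not overlap once scaled. On total counts 3 members were higher and 4 lower by interval, and that of S100a4 takes in 0. The share of all genes by that rule was not counted. S100a6 at -0.02 and Anxa5 at 0.02 (-0.03 to 0.06) each take the other sign under at least 1 other scaling.

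Between the Input libraries the differences were larger. Anxa2 was higher in shGpr151, at 0.57 (0.48 to 0.67), just inside 1.5-fold on TMM sizes and just outside it on total counts, at 1.51 times. Its 3 columns of Input shGpr151, 695, 723 and 733 counts, lay above those of Input control, 505, 464 and 500. Lgals3 was also higher, at 0.27 (0.19 to 0.36), with 821, 834 and 860 counts in Input shGpr151 and 722, 701 and 688 in Input control. S100a4 was lower, at -0.32 (-0.40 to -0.25), and so was S100a6, at -0.30 (-0.32 to -0.27), both with scaled columns that did not overlap. S100a10 at 0.02 (-0.01 to 0.05), S100a11 at -0.03 (-0.07 to 0.0039), Anxa5 at 0.13 (-0.01 to 0.27) and Lgals1 at -0.03 (-0.04 to -0.01) lay closer to 0. On TMM sizes the interval of Lgals1 alone among these 4 left out 0, and on total counts it takes in 0 whereas those of S100a10 and Anxa5 lie above it. Past 1.5-fold, 0 of 8 were higher or lower, where 9.29% of all genes were higher and 13.5% lower, and 5.68% and 0.655% of the 458 abundant genes. By counting interval 2 members were higher and 3 lower on TMM sizes, and 4 higher and 2 lower on total counts. On TMM sizes this compares with 42.6% and 42.8% of the 458 abundant genes and with 11.6% and 13.1% of all genes. On total counts the share of all genes by interval was not counted.

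**Figure D5:**
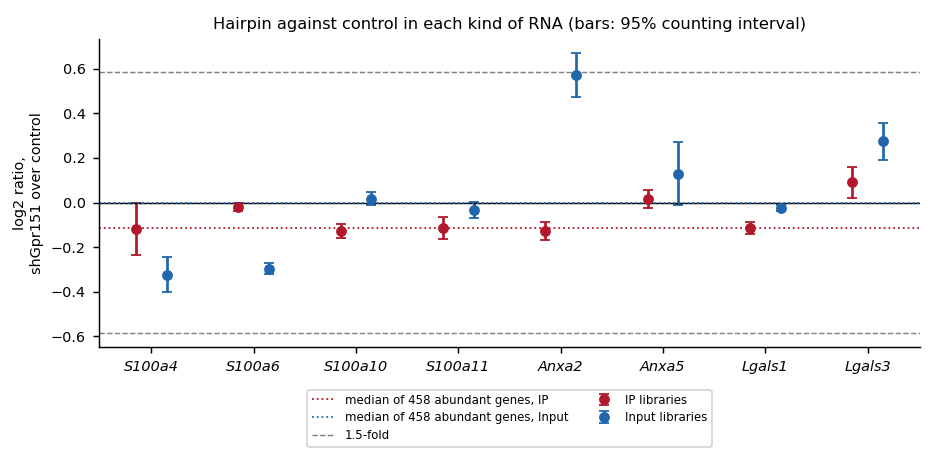
Log2 ratio of shGpr151 over control in IP (red) and in Input (blue) for the 8 genes, on TMM library sizes with 95% counting intervals. Dotted lines are the medians of the 458 abundant genes and dashed lines mark 1.5-fold. Anxa2 stands at 0.57 in Input and at -0.13 in IP, and S100a4 and S100a6 stand near -0.3 in Input.

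The hairpin ratio in IP minus that in Input was past 1.5-fold for 1 member, Anxa2, at -0.70 (-0.80 to -0.60), where 13.4% of all genes and 12.2% of the 458 abundant genes were lower by over 1.5-fold. It was higher past 1.5-fold for 0 members, where 19.9% of all genes and 12% of the abundant genes were. The interval of S100a6 lay above 0 at 0.27 (0.24 to 0.31), as did that of S100a4 at 0.21 (0.07 to 0.34). Lgals3 had -0.18 (-0.29 to -0.08), S100a10 -0.14 (-0.19 to -0.10), Lgals1 -0.09 (-0.12 to -0.06), S100a11 -0.08 (-0.14 to -0.02) and Anxa5 -0.11 (-0.26 to 0.03). By interval 2 members were higher and 5 lower, compared with 11.9% and 13.1% of all genes and with 31.4% and 51.3% of the 458 abundant genes. On total counts 2 were higher and 4 lower, since the interval of S100a11 then takes in 0, and S100a11 takes the other sign under 1 or more of the other scalings. The share of all genes by interval on total counts was not counted. Of the relatives, Anxa6 had 0.76 (0.44 to 1.07), with 0.33 (0.26 to 0.41) in IP and -0.43 (-0.74 to -0.11) in Input, the opposite direction from Anxa2. Lgals9 lay on the side of Anxa2 past 1.5-fold, at -0.67 (-1.36 to 0.02), with -0.37 (-0.66 to -0.08) in IP and 0.30 (-0.36 to 0.97) in Input, and its interval takes in 0. In Input the median hairpin ratio was -0.30 for satellite glia markers (-2.15 to 0.94), -0.25 for Schwann cell, -0.16 for fibroblast, -0.15 for sensory neuron, 0.24 for macrophage and 0.37 for endothelial and mural markers, and the part of these in the Anxa2 and S100a4 values was not tested.

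By Euclidean distance over the 4 library levels (log2, TMM sizes, each gene centred on its own mean), S100a4 and S100a11 were the closest pair of members at 0.47, followed by S100a6 with Lgals3 at 0.61 and S100a10 with S100a11 at 0.63. Anxa2 and Anxa5 were 1.04 apart, and the farthest pair, Anxa5 and Lgals1, 5.58. The mean profile of the 8 thus averages unlike profiles, and a gene near it need not resemble any member. Among 1024 other named genes with at least 200 counts in every library, those nearest to the mean profile of the 8 were Adgrg1, an adhesion receptor gene, at 0.04, the autophagy genes Map1lc3a at 0.07 and Map1lc3b at 0.09, the clathrin adaptor gene Ap2s1 at 0.08 and the peroxiredoxin gene Prdx5 at 0.10.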

How the data were processed

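Libraries of 12 samples in 4 groups were made for nanopore sequencing of PCR-amplified cDNA, according to the labels' protocols. Minimap2, Salmon, GRCm39 and mm39 appear without versions in the submitters' processing notes. Values in the authors' deposited table are raw counts per gene, none under 1. Strand use and the treatment of reads shared by gene copies: not given in the sources used here. Symbols matched 9061 of the 9073 gene IDs.

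The members, gene lists and rules were chosen with earlier results of these data known. The 3 columns of each group were summed, because they agreed almost to counting noise, in place of the edgeR quasi-likelihood test, which was run as an alternative. Ratios on the log2 scale compare summed counts divided by summed TMM sizes (edgeR 4.0.16, R 4.3.3, genes kept by filterByExpr at a minimum count of 10), with exact conditional binomial 95% intervals and a Wald interval for the difference of ratios. CPM have exact Poisson intervals (scipy 1.17.1). Amplified reads may not be independent molecules, so intervals cover counting error only. A fold of 1.5 between treatments and of 2 between IP and Input counts as past the fold. Alternatives were other scalings and filters, a lower fold, edgeR with and without the replicate number as a block, DESeq2 1.42.0 and each column left out. The 458 abundant genes as a background, and the interval rule, were chosen after seeing the data. Named genes are all members, relatives in the table, up to 4 genes with the most counts of each other list, and the 5 genes nearest in pattern. Methods were tested on simulated counts. Figures were drawn with matplotlib 3.10.9.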

Additional observations from a re-analysis of the deposited data

Results flagged for a closer look

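Anxa2 had hairpin ratios of opposite direction in the 2 kinds of RNA, with every scaled column of IP shGpr151 below those of IP control and every column of Input shGpr151 above those of Input control. Subtracting the Input value from the IP value gave -0.70 on the log2 scale. In this difference 13.4% of all genes and 12.2% of the 458 abundant genes were lower by over 1.5-fold. The IP ratio of Anxa2, -0.13, lay near the median of the abundant genes, -0.12, and 60.5% of those were below 0 by interval. With 1 sample per group the Anxa2 difference was not tested between samples, and the counting interval covers the reads of these libraries only. The columns of a group were close to repeat draws of 1 library, so their separation adds no replicate check.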

How the results depend on the processing

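The choice of library scaling changed most. On total counts alone, members past 2-fold in IP against Input were 4 higher and 1 lower in both treatments. Among the 8312 genes 6331 were higher and 684 lower in shGpr151, and 6447 and 673 in control. The ratios of S100a10 (0.56 in shGpr151, 0.68 in control) and S100a11 (0.025 in control) turned positive, as did those of S100a6 (1.94 in shGpr151, 1.64 in control) and Lgals3 (1.26 in shGpr151, 1.42 in control). This follows from the shift between the scales. Among 200 member ratios under 5 other scalings or filters, 13 changed sign, and with 1 column left out 14 of 480 did. Upper quartile scaling, the lower fold of 1.5, edgeR, DESeq2 and the counting interval each gave 2 members higher in IP against Input in shGpr151, since Anxa2 then counted. At the fold of 1.5 Lgals3 also counted as lower, at 1.91-fold in shGpr151 and 1.68-fold in control. The counting interval gave 6 lower in each treatment. The share of all genes past a lower fold was not counted. For Input shGpr151 against Input control, RLE size factors, total counts and a lower fold each gave 1 member higher, and the lower fold gave 1 lower. Tests on the 12 columns compare libraries only, with Benjamini-Hochberg adjustment over all genes. By edgeR, 4 members were lower between the IP libraries, 2 higher and 2 lower between the Input libraries, and 2 higher and 4 lower in the difference of the ratios. Over the 8312 genes edgeR called 309 higher and 417 lower, 693 and 723, and 453 and 732 in that order. DESeq2 gave 4 lower between the IP libraries, 2 and 2 between the Input libraries, and 1 higher and 4 lower in the difference. Over all genes DESeq2 called 109 higher and 321 lower, 599 and 482, and 279 and 663. The share among the abundant genes was not counted for these tools. The counting interval gave 1 higher and 6 lower, 2 and 3, and 2 and 5 in that order. On total counts the interval gave 3 higher and 4 lower, 4 and 2, and 2 and 4 in that order, and 5 higher and 2 lower for IP against Input in either treatment. How many of all genes the interval placed higher or lower on total counts was not counted. The edgeR fit with the replicate number as a block gave the same numbers as without it, 4 lower, 2 and 2, and 2 and 4, and 2 higher for IP against Input in shGpr151. Columns of equal number did not deviate together (18 correlations from -0.012 to 0.019). Columns of a group differ by little more than counting error, so these correlations cannot tell whether the numbers pair the samples. With 1 column left out, the count past the fold between the Input libraries ran from 0 to 1 higher, and all other counts kept their value. Leaving out a column moved a member's ratio by at most 0.09. Depth limits the genes with few counts in Input, such as S100a3, Anxa11 and Lgalsl. No replicate libraries were analysed here to give a spread between animals or cultures, and the cause of the differences between scalings was otherwise not tested.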

Other observations

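Among other EF-hand calcium binders, 17 of 23 listed genes were in the table. On TMM sizes 5 of them were past 2-fold higher in IP than in Input and 3 lower in both treatments, with a median of 0.43 in either. Of all genes 26.4% were higher and 26.6% lower in shGpr151, and 23.7% and 25.2% in control. On total counts 14 of the 17 were past 2-fold higher and 1 lower. On that scale 6331 of the 8312 genes were higher and 684 lower in shGpr151, and 6447 and 673 in control. Chp1, a calcineurin-like binding protein of sodium-proton exchangers, had an IP over Input ratio of 3.47 (3.17 to 3.78) in shGpr151 and 3.12 (2.86 to 3.41) in control.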
